A study of Homo sapiens with 3 samples.

Results

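The genes described here encode the proteins of the mitochondrial ribosome. They were taken from the deposited expression table by name, as every gene whose symbol starts with MRPL or MRPS followed by a number, with the transcript of the most reads standing for each gene. The rule found 78 genes among 19225 symbols, 49 named MRPL and 29 named MRPS, and all 78 are listed as protein-coding. RNA was sequenced from 5637 cells, an established human bladder carcinoma line whose genotype is labelled WT in every sample. There was 1 library of cells transfected with a control siRNA (siNC) and 1 library each for siCDCA3-1 and siCDCA3-2, which carry the same label of siRNA against CDCA3, a regulator of cell division. The labels do not say whether the latter are separate siRNA sequences or repeated cultures, so p-values measure only the spread between these libraries, which may be technical.

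Mitochondria keep their own ribosome, which translates the few mRNAs encoded by mitochondrial DNA, all of them for subunits of the respiratory chain and the ATP synthase. Its RNA is made inside the organelle, while its proteins are encoded in the nucleus, made in the cytosol and imported. The large subunit holds the peptidyl transferase centre, the exit tunnel and the stalk that recruits elongation factors, and the small subunit holds the decoding centre. Some proteins are shared with bacterial ribosomes and others exist only in mitochondria, and defects in several of them cause inherited disease of energy metabolism.

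RPKM, read counts scaled by transcript length and by the library's total, was 5.52 for CDCA3 itself in siNC and 0.574 and 1.40 in siCDCA3-1 and siCDCA3-2. The libraries held 40420563 to 62389922 counts at the gene level. Over the 10153 genes tested, those whose mean RPKM reached 1, the Pearson correlation of log2(RPKM + 1) was 0.963 and 0.938 between siNC and the siCDCA3 libraries and 0.915 between the siCDCA3 libraries, so the siCDCA3 libraries lay farther from each other than from siNC. All 8 carcinoma epithelium markers passed the filter, with a summed RPKM of 2280, 1842 and 1420 in the order siNC, siCDCA3-1, siCDCA3-2, which is used throughout. EPCAM (27.0, 17.4 and 45.4) was the only 1 of the 8 above siNC in siCDCA3-2. KRT8 (246, 385 and 238), KRT18 (151, 162 and 130) and CDH1 (17.2, 21.5 and 13.4) were above siNC in siCDCA3-1 and below it in siCDCA3-2. Both siCDCA3 libraries were below siNC for KRT5 (421, 218 and 199.95), KRT17 (429, 210.1 and 138), KRT19 (972, 822 and 643) and TP63 (16.04, 6.30 and 12.4). None passed the edgeR threshold, and KRT17 had the lowest unadjusted p of the 8 (edgeR, 0.0337). Of 4 leukocyte, 4 fibroblast and 4 endothelial markers, CD68 (1.42, 1.94 and 0.993) and COL1A1 (6.96, 8.33 and 2.26) passed and no endothelial marker did. PTPRC, which defines leukocytes, was at 0.00141, 0 and 0.0115. LUM, a fibroblast proteoglycan, was at 0.123, 1.47 and 0.00294, and the summed RPKM of the 4 fibroblast markers was 7.1, 9.87 and 2.29. Of 4 urothelial differentiation markers only GATA3 (6.11, 6.69 and 5.22) passed, with UPK2 at 0.386, 0.802 and 0.167. The part of these markers in the results was not tested, and in bulk RNA fewer cells of a type and less RNA per cell cannot be told apart.

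Short letter patterns at the starts of these genes are shown first, because some are more frequent among the members than among all genes tested and the naming rule did not use them. RefSeq windows on GRCh38.p14, from 250 bases before to 50 after the gene start, were found for 70 of the 78 members and for 8381 of the 10153 tested genes. The members with no window were MRPL2, MRPL10, MRPL13, MRPL15, MRPL21, MRPL23, MRPL35 and MRPS28. Each pattern was searched on both strands. The letters CCGGAAG, the core bound by ETS factors such as GABPA, occurred in 29 of 70 member windows (41.4%), in 21% of the windows of tested genes and in 10.7% of 27305 windows of all genes. The letters AAGATGGCG, the core of the YY1 motif, occurred in 13 member windows (18.6%), in 4.55% of tested genes and in 1.85% of all windows. The letters GCATGCGC, the core of the NRF1 motif, occurred in 6 member windows (8.57%), against 5.94% of tested genes and 3.27% of all. With so few windows the NRF1 share lay near that of tested genes. Each of the 3 factors is a known regulator of nuclear genes for mitochondrial proteins. A match describes the letters in the window and is not evidence of binding.

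The ETS letters often lay close to the start, a placement examined in members only and not compared with that in other genes. Of 39 matches examined in members, 27 began within 100 bases before the start. The stretches below show 6 of them with 10 bases on either side, 5′ to 3′ on the gene's strand. The 6 matches are in capitals (CTTCCGG where they lie on the opposite strand). MRPL3, MRPS10 and MRPS18A are among the members with the largest differences described later. MRPS34 holds several matches in a row, and the end of its stretch holds another in small letters.
MRPL3 (chr3:131502987-131503013, minus strand): gtaaaacgcaCCGGAAGtgggtccggc
MRPL20 (chr1:1407321-1407347, minus strand): gaccttcgccCCGGAAGtatcgcaggg
MRPL47 (chr3:179604661-179604687, minus strand): gcttgagacgCCGGAAGtgacgctatc
MRPS10 (chr6:42217867-42217893, minus strand): cgctgtaaccCCGGAAGcaatcctgag
MRPS18A (chr6:43687806-43687832, minus strand): gcgctacgttCCGGAAGcggaaatgga
MRPS34 (chr16:1773147-1773173, minus strand): acaccggcctCTTCCGGtgacttccgg

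The YY1 letters mostly lay on the other side of the start, again examined in members only. Of 14 matches in 13 members, 10 began after the start and 12 were on the gene's own strand. In 9 members the ATG inside the letters is a start codon annotated in GENCODE 29, and the match began 7 to 36 bases into the transcript. These stretches show 6 of the 9, with the YY1 letters in capitals, so that the first codon is the ATG within them.
MRPL38 (chr17:75904860-75904888, minus strand): ggccggagggAAGATGGCGgcgccctggt
MRPL46 (chr15:88467362-88467390, minus strand): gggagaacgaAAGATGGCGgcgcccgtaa
MRPL50 (chr9:101398577-101398605, minus strand): gatctcatcgAAGATGGCGgcgcgatctg
MRPS10 (chr6:42217834-42217862, minus strand): cgggaccggcAAGATGGCGgcgcggacag
MRPS18A (chr6:43687764-43687792, minus strand): taggtttttgAAGATGGCGgccctcaagg
MRPS24 (chr7:43869480-43869508, minus strand): cgcttggcccAAGATGGCGgcctccgtgt

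The letters of the GC box, CCAAT box, E-box and TATA box were no more frequent among the members. The Sp1 GC box GGGCGG occurred in 61.4% of member windows and 72.8% of tested genes, and CCAAT in 28.6% and 37.2%. The E-box CACGTG, which MYC binds, occurred in 10% and 10.7%, and TATAAA in 4.29% and 5.02%. The median GC content of the windows was 60.3% for members and 66% for tested genes. Large and small subunit genes held the ETS letters in like numbers, 17 of 42 MRPL and 12 of 28 MRPS windows. Members with and without the ETS letters had median differences from siNC of -0.19 and -0.17 in siCDCA3-1 and of 0.10 and 0.19 in siCDCA3-2, on the log2(RPKM + 1) scale used for all differences here.

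**Figure D1:**
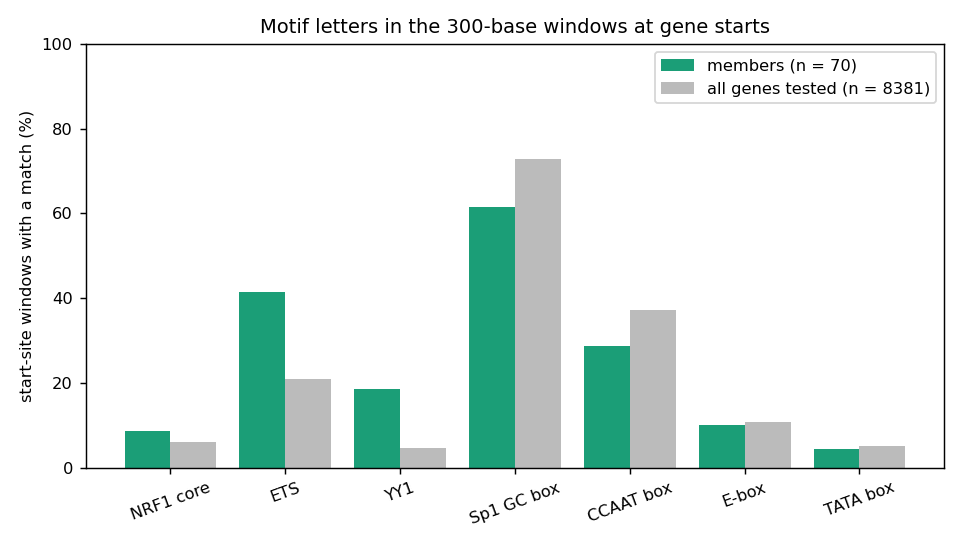
Share of start-site windows (percent) holding each motif's letters on either strand, for 70 members and 8381 tested genes. Bars for the ETS and YY1 letters are taller for members (41.4% and 18.6%) than for tested genes (21% and 4.55%), and the GC box and CCAAT bars are shorter.

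Several members share their start region with a neighbour. A tested gene began on the opposite strand within 1000 bases upstream of 16 of 70 members (22.9%), against 964 of 8381 tested genes (11.5%). MRPL46 and MRPS11 are such a pair, 320 bases apart. MRPL46 had RPKM of 7.01, 8.12 and 5.35, while MRPS11 had 2.57, 2.53 and 2.75, so the pair differed in the order of the libraries. MRPS12 begins 181 bases from SARS2, a mitochondrial seryl-tRNA synthetase, and MRPL18 begins 210 bases from TCP1, a chaperonin subunit with RPKM of 61.1, 50.3 and 98.6. Exons of 34 of the 78 members also overlap an exon of another coding gene in GENCODE 29, readthrough models included. The sources used here do not state whether reads were counted by strand, and reads of such pairs cannot be told apart. MRPS10 and MRPL3, which had the largest differences, are not among the 34, which do include MRPL12, MRPL28, MRPL32, MRPS12, MRPS16, MRPS18A, MRPS18C, MRPS24 and MRPS27 are.

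All 78 members passed the filter of a mean RPKM of at least 1, and 69 had a mean of at least 5. Read counts per member and library ran from 378 to 12084. Their RPKM in siNC ran from 1.93 to 64.6 with a median of 15.05, against a median of 5.55 over all genes tested. Although the proteins assemble into 1 particle, the highest siNC level was 33.4 times the lowest. The median siNC level was 15.7 for MRPL and 12.6 for MRPS genes.

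The highest members by mean level came from both subunits. MRPS24, a bacterial-type protein of the small subunit, had RPKM of 64.6, 62.2 and 72.3. MRPL12, the stalk protein that binds elongation factors, had 61.8, 47.4 and 73.5. MRPL51, a mitochondria-specific protein, had 41.8, 41.9 and 54.2. All 3 were highest in siCDCA3-2. MRPS15 had 42.3, 34.7 and 41.6, and MRPS34 had 37.4, 33.9 and 40.4. At the low end stood MRPS25 (1.93, 1.92 and 2.74), MRPL19 (2.54, 1.71 and 3.35) and MRPS11 (2.57, 2.53 and 2.75). Across the 78 members the Spearman correlation of RPKM was 0.965 between siNC and siCDCA3-1, 0.945 between siNC and siCDCA3-2 and 0.931 between the siCDCA3 libraries, with transcript length shared by each gene's values. The order of the family was thus much alike in the 3 libraries.

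**Figure D2:**
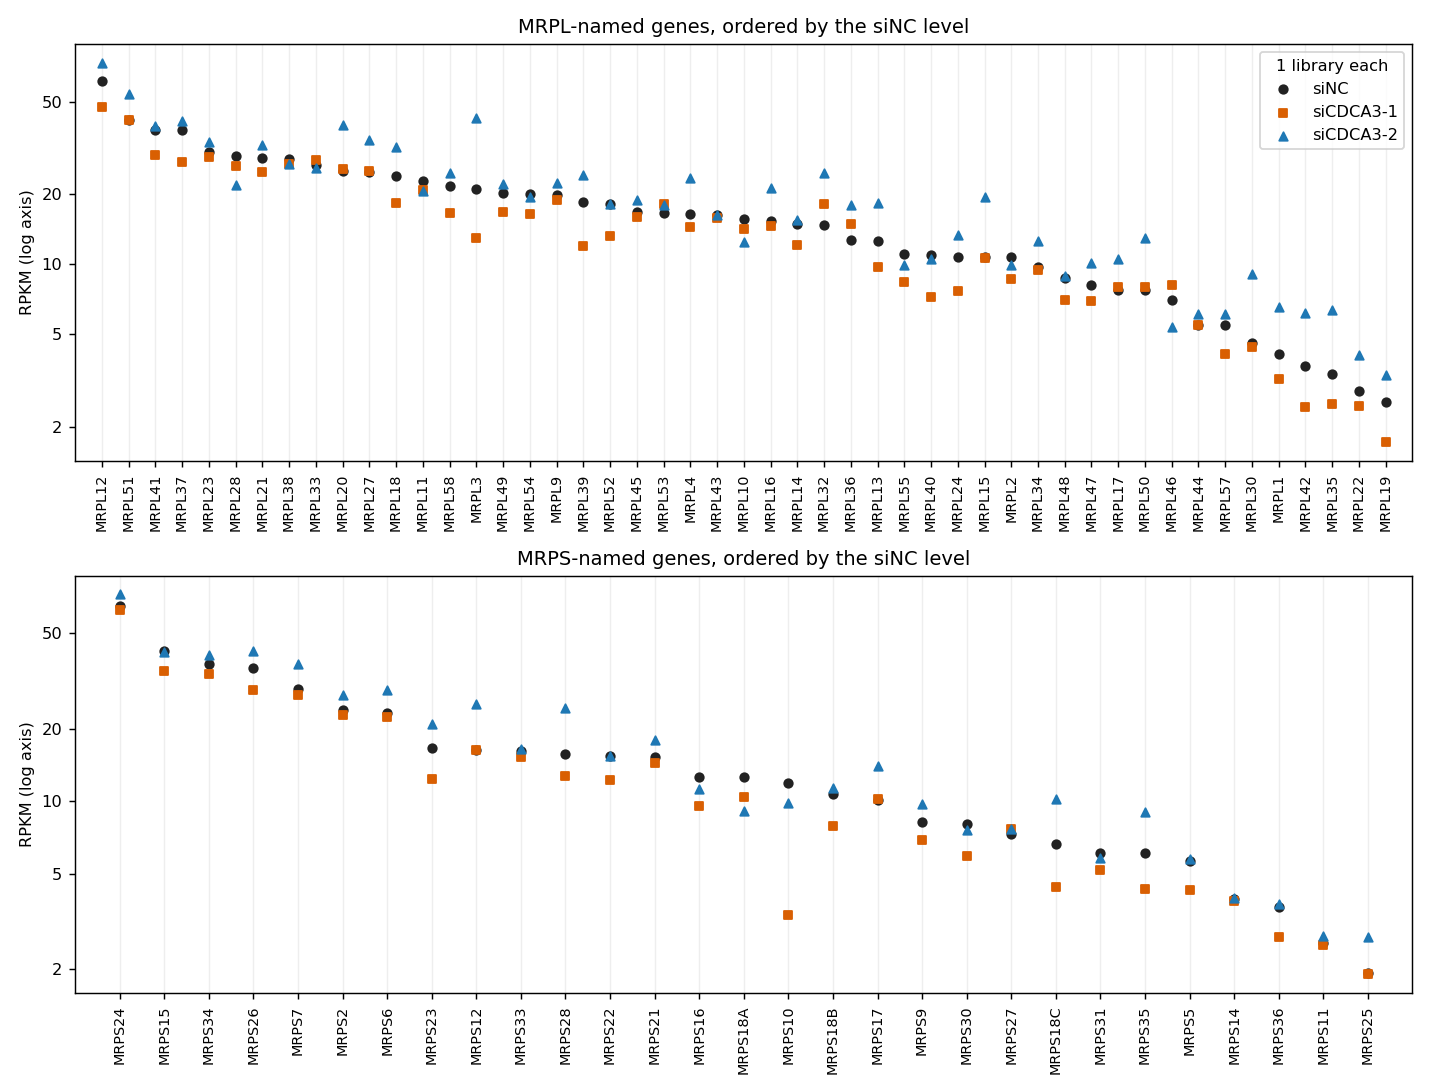
RPKM (log axis) of the 49 MRPL and 29 MRPS genes in the 3 libraries, ordered by the siNC level, 1 point per library. Most siCDCA3-2 points lie above and most siCDCA3-1 points below the siNC point, and MRPS10 in siCDCA3-1 (3.36 against 11.9 in siNC) stands lowest relative to its siNC level.

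No member was called in the test of siCDCA3 against siNC across all genes. With edgeR's quasi-likelihood test and Benjamini-Hochberg adjustment, 0 of 78 members passed an adjusted p of 0.05, and 0 had an unadjusted p under 0.05. Over all genes 3 of 10153 passed (0.0295%) and 134 had an unadjusted p under 0.05. DESeq2 and limma also called 0 members, with 0 at an unadjusted p under 0.05. The lowest unadjusted p among the members was 0.162 (edgeR, MRPS10), and edgeR log2 fold changes of the other 77 ran from -0.35 to 0.55 with standard errors between 0.47 and 0.65. The test has 1 residual degree of freedom and assumes that the lone siNC library varies like the siCDCA3 libraries. A high p therefore does not show that a gene kept its level. CDCA3 itself, at 10.4% of siNC in siCDCA3-1 and 25.3% in siCDCA3-2, did not pass the threshold either (edgeR log2 fold change -2.50).

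The siCDCA3 libraries departed from siNC in opposite directions. In siCDCA3-1, 64 of 78 members were lower than in siNC, with a median difference of -0.19, against 58.6% of all genes and a median of -0.07. In siCDCA3-2, 60 members were higher, with a median of 0.18, against 54.4% of all genes and a median of 0.05. In all, 48 members (61.5%) were lower in siCDCA3-1 and higher in siCDCA3-2, where 30.8% of all genes were. Another 16 members (20.5%) were lower than siNC in both and 12 (15.4%) higher in both, with shares over all genes of 27.8% and 23.6%. The remaining 2, MRPL33 and MRPL46, were higher in siCDCA3-1 and lower in siCDCA3-2 (17.8% of all genes). Both comparisons use the same siNC library.

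These counts moved with the scaling of the libraries. With TMM factors, which bring the median of all genes to -0.001 and -0.002, 28 members were lower in siCDCA3-1 and higher in siCDCA3-2, 19 were lower in both, 25 higher in both and 6 the other way, against 23.9%, 26.2%, 25.9% and 24% of all genes. The member medians were then -0.12 in siCDCA3-1 and 0.12 in siCDCA3-2, with the same signs as before. Median-of-ratios factors gave 29, 19, 25 and 5 members. Under both scalings 13 members moved from opposite signs to higher in both, MRPS24, MRPS25, MRPS11, MRPL15, MRPL30 and MRPL45 among them, and 4 moved to lower in both, MRPS36 among them.

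The direct comparison of the siCDCA3 libraries does not use siNC, and compares 2 libraries with no replicate of either. Their difference was positive, higher in siCDCA3-2, for 71 of 78 members against 57.8% of all genes, with medians of 0.38 and 0.10. With TMM factors 65 members and 48.7% of all genes were higher in siCDCA3-2, with medians of 0.25 and -0.02. A difference of at least 1.5-fold was seen for 21 members and for 17.6% of all genes, or 14 members and 12.8% after TMM scaling. Only MRPL10, MRPL11, MRPL28, MRPL33, MRPL46, MRPL53 and MRPS18A were lower in siCDCA3-2 than in siCDCA3-1 as deposited. Members took 0.413% of gene-level counts in siNC, 0.356% in siCDCA3-1 and 0.493% in siCDCA3-2, with exact 95% binomial intervals of 0.411% to 0.415%, 0.354% to 0.358% and 0.491% to 0.494% that cover counting error only. Across all genes the difference between the siCDCA3 libraries had a Spearman correlation of -0.399 with transcript GC content, and -0.358 across the members. The median GC content was 49.1% for members and 50.1% for all genes. The median transcript length was 1185.5 bases for members and 3090 for all genes. The Spearman correlation of length with the difference between the siCDCA3 libraries was -0.044 across all genes and 0.152 across the members. With the difference of siCDCA3-1 from siNC it was 0.209 and -0.191, and with that of siCDCA3-2 0.101 and 0.032. The part of GC or length in the results was not tested.

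**Figure D3:**
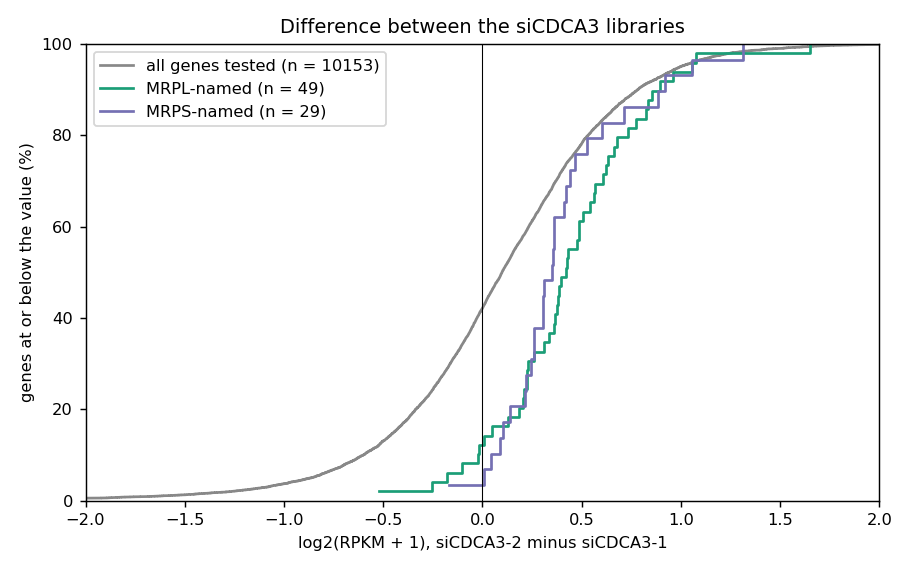
Cumulative share of genes (percent) by the difference in log2(RPKM + 1) between siCDCA3-2 and siCDCA3-1, for all tested genes and both member groups; 72 tested genes lie outside the axis. Over most of the range both member curves lie to the right of the curve of all genes, which they meet near a difference of 1, with medians of 0.42 (MRPL) and 0.35 (MRPS) against 0.10.

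Large and small subunit genes gave similar values. Median differences were -0.17 for MRPL and -0.21 for MRPS genes in siCDCA3-1, and 0.18 and 0.11 in siCDCA3-2. In each direction these lay within the spread of either group, whose quartiles were -0.34 and -0.04 (MRPL) and -0.34 and -0.06 (MRPS) in siCDCA3-1, and 0.02 and 0.45 (MRPL) and 0.01 and 0.31 (MRPS) in siCDCA3-2. MRPL genes held 63.4%, 63.8% and 65.4% of the members' counts. The names do not follow the structure throughout: MRPS18A and MRPS30 sit in the large subunit, and MRPS36 is now regarded as part of the 2-oxoglutarate dehydrogenase complex. With these 3 placed accordingly, the large minus small difference of medians went from 0.04 to -0.03 in siCDCA3-1 and from 0.07 to 0.003 in siCDCA3-2.

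By origin, the 29 large subunit genes with a bacterial counterpart had median differences of -0.14 in siCDCA3-1 and 0.40 in siCDCA3-2, and the 19 mitochondria-specific ones -0.27 and 0.12. In the small subunit the medians were -0.07 and 0.21 for 16 bacterial-type genes and -0.20 and 0.11 for 9 mitochondria-specific genes. The difference between these classes was not tested, since genes of 1 library are not replicates. As deposited, siCDCA3-2 was above siCDCA3-1 for 16 of 16 and 9 of 9 of these small subunit genes and for 25 of 29 and 17 of 19 in the large subunit classes, against 57.8% of all genes. With TMM factors these were 14, 7, 25 and 15, or 82.8% of MRPS and 83.7% of MRPL genes in all, and the siCDCA3-1 median of the bacterial-type small subunit genes went to 0.003.

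**Figure D4:**
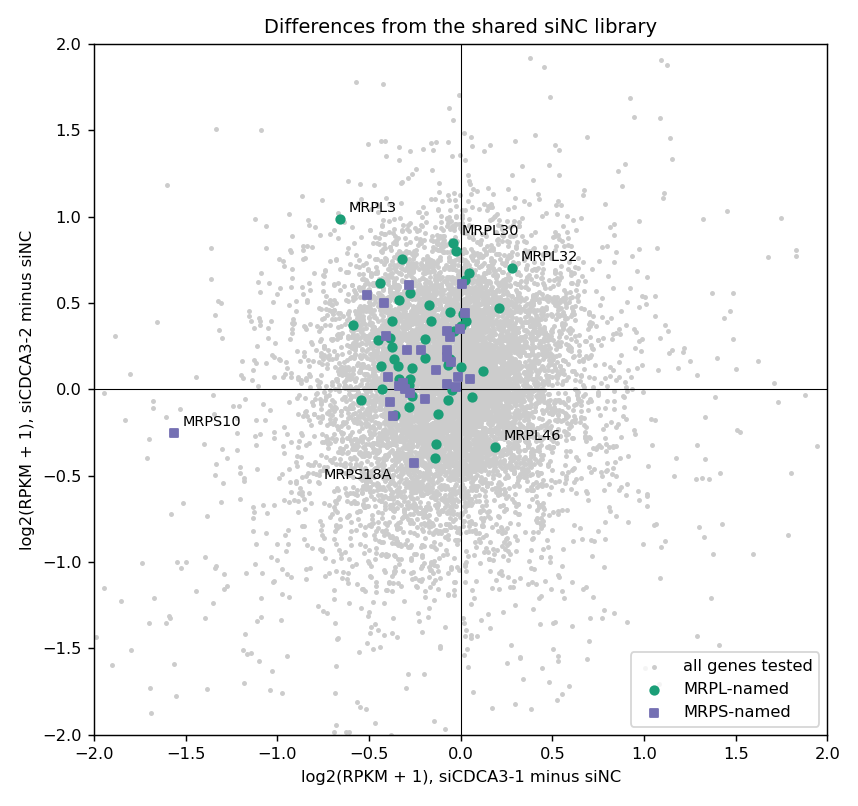
Difference of log2(RPKM + 1) from siNC in siCDCA3-1 (horizontal) and siCDCA3-2 (vertical), 1 point per gene; 68 tested genes lie outside the axes and both axes share the siNC library. The upper left holds 48 of 78 members, and MRPS10 (-1.57 and -0.25) and MRPL3 (-0.66 and 0.99) lie farthest from the rest of the members.

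On the log2(RPKM + 1) scale, which understates folds of low genes, 1 member was past 2-fold in either siCDCA3 library, MRPS10, or 1.28% of the members against 6.33% of all genes. By the plain ratio of RPKM there were 2, MRPS10 and MRPL3, or 2.56% against 12.9% of all genes. MRPS10 (NM_018141.3, chromosome 6, 42206807 to 42217861 on GRCh38.p14), a protein of the head of the small subunit, had RPKM of 11.9, 3.36 and 9.85, from 3327, 750 and 3386 counts. Its siCDCA3-1 level was 28.2% of siNC, with a 95% counting interval of 26.1% to 30.6%, and its siCDCA3-2 level 82.7% (78.8% to 86.7%). The lowest value was thus that of the siCDCA3-1 library. The siCDCA3-2 level was closer to siNC, with an interval that also lay below 100%. In edgeR's quasi-likelihood test the log2 fold change was -0.87 (standard error 0.59, adjusted p = 0.9997). The table lists 1 transcript for MRPS10. The 100 bases before its start, shown because MRPS10 stands apart, lie at chr6:42217862-42217961 on the minus strand and hold the ETS letters (capitals) once.
MRPS10: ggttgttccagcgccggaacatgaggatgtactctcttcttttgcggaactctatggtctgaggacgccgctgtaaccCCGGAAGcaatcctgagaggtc

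MRPL3 showed the largest gap between the siCDCA3 libraries. The gene (NM_007208.3, chromosome 3, 131462212 to 131502971) encodes a core protein near the peptidyl transferase centre, and its variants cause mitochondrial cardiomyopathy. Its RPKM was 21.01, 12.9 and 42.6, so siNC stood between the other libraries. The siCDCA3-1 and siCDCA3-2 levels were 61.5% (58.6% to 64.6%) and 203% (196% to 210%) of siNC, and siCDCA3-2 was at 330% (316% to 345%) of siCDCA3-1. The window before its start is shown for comparison with that of MRPS10 and also holds the ETS letters once (chr3:131502972-131503071, minus strand).
MRPL3: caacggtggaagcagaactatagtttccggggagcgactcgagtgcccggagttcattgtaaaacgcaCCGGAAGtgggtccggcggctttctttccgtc

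The other members with the largest gaps between the siCDCA3 libraries, after MRPS10, had the order of MRPL3. MRPL35, a bacterial-type large subunit protein, had RPKM of 3.38, 2.51 and 6.38. MRPS18C, the S18 paralog of bacterial type, had 6.67, 4.39 and 10.2. MRPL42, a mitochondria-specific protein, had 3.66, 2.44 and 6.15. All 3 were lowest in siCDCA3-1 and highest in siCDCA3-2. At 1.5-fold or more on the log2(RPKM + 1) scale, MRPL3, MRPL39 and MRPS10 were lower in siCDCA3-1 (3 of 78, or 3.85%, against 7.22% of all genes). In siCDCA3-2, MRPL3, MRPL15, MRPL20, MRPL30, MRPL32, MRPL35, MRPL42, MRPL50, MRPS12 and MRPS28 were higher by as much (10 of 78, or 12.8%, against 9.6%). By the plain ratio of RPKM, MRPL40 (65.7% of siNC), MRPL42 (66.6%) and MRPS18C (65.8%) joined the first group, which made 7.69% of members against 12.3% of all genes. MRPL1 (159%) and MRPS18C (153%) joined the second, which made 15.4% against 15.1%. On either scale no member was 1.5-fold higher in siCDCA3-1 or 1.5-fold lower in siCDCA3-2. Counting error was small beside most of these differences: the interval of the ratio to siNC lay below 100% for 50 members and above for 4 in siCDCA3-1, and below for 10 and above for 50 in siCDCA3-2.

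Members lower in both siCDCA3 libraries had modest differences apart from MRPS10. MRPS18A, a large subunit protein of the S18 family, had RPKM of 12.6, 10.4 and 9.11, or 82.5% (76.8% to 88.5%) and 72.5% (67.9% to 77.3%) of siNC. MRPL28 had 29.3, 26.5 and 21.98, and MRPL10, which anchors the stalk, had 15.7, 14.2 and 12.4. MRPS16, a small subunit protein mutated in a fatal infantile disorder, had 12.6, 9.51 and 11.2, and MRPL55 had 11.04, 8.403 and 9.87. In these 5 siNC was the highest of the 3 libraries, also with TMM and median-of-ratios factors. Of the 16 members lower in both as deposited, 14 were so under each of these scalings, the exceptions being MRPL38 and MRPL43.

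Members higher in both siCDCA3 libraries were led by MRPL32, whose protein is processed by the mitochondrial m-AAA protease before it joins the ribosome. It had RPKM of 14.8, 18.1 and 24.6, or 123% (115% to 131%) and 167% (157% to 177%) of siNC. MRPL36 had 12.7, 14.9 and 18.0, and MRPL50 had 7.73, 7.99 and 12.9. MRPL53 had 16.7, 18.2 and 18.0. For MRPL50 the interval of the siCDCA3-1 ratio held 100% (94.4% to 113%), so siCDCA3-1 could not be told from siNC at this depth. MRPS27, a pentatricopeptide repeat protein of the small subunit, had 7.33, 7.64 and 7.67, and both of its intervals held 100%. MRPL17 had 7.77, 7.95 and 10.5. Of the 12 members higher in both as deposited, only MRPL32, MRPL36 and MRPL53 had a siCDCA3-1 interval wholly above 100%. All 12 were also higher in both with TMM and median-of-ratios factors. Both scalings raise the siCDCA3-1 differences, so a positive sign in that library was bound to stay.

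**Figure D5:**
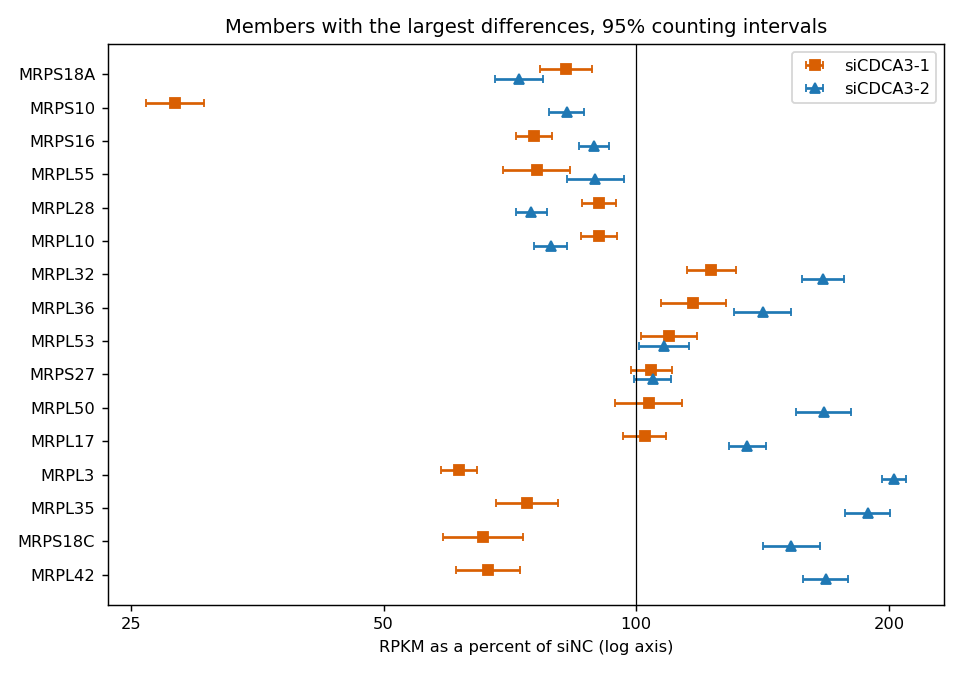
RPKM in siCDCA3-1 and siCDCA3-2 as a percent of siNC (log axis), with exact 95% counting intervals as bars, for the 16 members with the largest decrease or increase in both siCDCA3 libraries or the largest gap between them. MRPS10 in siCDCA3-1 (28.2%) is the lowest point and MRPL3 in siCDCA3-2 (203%) the highest.

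The remaining members are described by their place in the ribosome. Beside MRPL10 and MRPL12, the stalk base protein MRPL11 had RPKM of 22.8, 20.8 and 20.6. MRPL12 had 76.7% (74.1% to 79.5%) of its siNC level in siCDCA3-1 and 119% (116% to 122%) in siCDCA3-2, so stalk genes did not share 1 order of libraries. MRPL45, which lies at the exit tunnel and tethers the ribosome to the inner membrane, had 16.8, 15.99 and 18.8. MRPL44, which has an RNase III-like fold, had 5.48, 5.49 and 6.09. Both varied little.

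In the small subunit, MRPS12, the decoding centre protein, had RPKM of 16.3, 16.4 and 25.4, with siCDCA3-2 standing above the other libraries. MRPS28 had 15.7, 12.7 and 24.4. MRPS22, mutated in a disorder of cardiac muscle and brain, had 15.4, 12.3 and 15.4, and was lowest in siCDCA3-1. The S18 paralogs MRPS18A, MRPS18B and MRPS18C differed in order: MRPS18B had 10.8, 7.92 and 11.3, MRPS18A was lowest in siCDCA3-2 and MRPS18C highest there. MRPS30, a large subunit protein despite its name, had 8.02, 5.92 and 7.56, and MRPS36 had 3.63, 2.73 and 3.76, both lowest in siCDCA3-1.

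The choice of transcript had little effect on the member medians but changed the values of some members. With the longest transcript of each gene the medians were again -0.19 in siCDCA3-1 and 0.18 in siCDCA3-2. The table lists 147 transcripts for the 78 members, and 34 members have several. Where there were several, the transcript with the fewest counts held 77.6% as many counts (median) as the top one. Transcripts of 1 gene disagreed in the sign of the difference from siNC for 2 members in siCDCA3-1 and 4 in siCDCA3-2. Across the 4 transcripts of MRPS18C the siCDCA3-2 difference ran from 0.14 to 0.55. For the 2 transcripts of MRPL35 it ran from 0.57 to 0.75. Across the 7 transcripts of MRPS11 the siCDCA3-1 difference ran from -0.025 to 0.112.

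Other genes of mitochondrial translation gave 0 calls by edgeR in each list, and 0 had an unadjusted p under 0.05. Of 5 mitochondrial ribosome proteins measured under other names, all 5 were lower in siCDCA3-1 and higher in siCDCA3-2 as deposited, the order of 30.8% of all genes. With TMM factors, under which 23.9% of all genes have that order, 3 did and the other 2 were lower in both. DAP3 had RPKM of 16.6, 14.6 and 19.7, PTCD3 3.14, 2.93 and 5.31, and GADD45GIP1 34.2, 23.8 and 34.4. Among 16 translation factors and activators 10 had that order (7 with TMM factors). As deposited 3 were lower in both and 2 higher in both, against 27.8% and 23.6% of all genes. TUFM, the elongation factor that brings aminoacyl-tRNA, had 44.4, 45.7 and 47.0. SLIRP, which stabilises mitochondrial mRNA, had 27.4, 22.8 and 47.8, and the release factor homolog C12orf65 had 7.02, 4.13 and 5.22.

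Ribosome assembly and rRNA modification genes had mixed orders of the libraries. Of 23 tested, 9 were lower in siCDCA3-1 and higher in siCDCA3-2, 6 lower in both and 7 higher in both. The shares over all genes were 30.8%, 27.8% and 23.6%. With TMM factors 6 had the first order, against 23.9% of all genes. The medians of the list were -0.14 and 0.10 as deposited. MRM2, a methyltransferase of the large subunit rRNA, had RPKM of 14.6, 12.3 and 8.48, and YBEY, an endoribonuclease of assembly, 0.657, 1.27 and 1.13. Of 17 mitochondrial tRNA synthetases 10 had both siCDCA3 values above siNC and 1 had both below, against 23.6% and 27.8% of all genes. The medians were 0.04 and 0.21, so this list did not have a negative median in siCDCA3-1. CARS2 had 14.6, 24.8 and 19.97, and IARS2 19.3, 15.1 and 22.9.

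Among 16 genes of mitochondrial DNA maintenance, transcription and RNA processing, 10 were lower in siCDCA3-1 and higher in siCDCA3-2 (9 with TMM factors). Over all genes 30.8% had that order as deposited and 23.9% with TMM factors. The medians of the list were -0.14 and 0.34 as deposited. TFAM, which packages mitochondrial DNA and starts its transcription, had RPKM of 4.26, 2.54 and 6.77. POLRMT, the mitochondrial RNA polymerase, had 10.6, 11.5 and 15.9. TRMT10C, a subunit of mitochondrial RNase P, had 4.81, 4.69 and 9.12, and POLG2, the accessory subunit of the DNA polymerase, 3.17, 1.88 and 2.00. Of 9 nuclear regulators 7 passed the filter. MYC, which drives ribosome and mitochondrial genes, had 27.5, 17.3 and 54.9, the order that 30.8% of all genes had as deposited. A link between MYC and the members was not tested. NRF1 had 3.59, 2.58 and 3.13, GABPA 3.11, 3.32 and 4.33, and ESRRA 23.4, 19.0 and 18.3. Of 28 mitochondrial-encoded genes looked up by symbol, 0 were found among the deposited symbols, so transcripts of mitochondrial DNA were not analysed here.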

How the data were processed

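RNA of 3 libraries of 5637 cells was read after removal of ribosomal RNA, per the labels' protocols. Per the submitters' processing notes, Trimmomatic 0.36, FastQC, HISAT2 and HTSeq were used, and builds hg38 and mm10 are both listed without a role. The deposited table held, per the file headers, a read count for each RefSeq transcript and the authors' RPKM. Of the accessions 98.6% matched human RefSeq, and 102 of 103 symbols turned into dates were restored. One transcript stood for each gene (most counts). No other column of sample values was present.

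The 10153 genes whose mean RPKM reached 1 were tested with edgeR 4.0.16 (R 4.3.3; TMM scaling, quasi-likelihood, two-sided, Benjamini-Hochberg over all genes, threshold 0.05), siCDCA3 (2 libraries) against siNC (1). Standard errors were derived from the F statistic. DESeq2 1.42.0, limma 3.58.1 and the settings under the closing section were alternatives. The edgeR step was run on simulated counts to check its fold estimates, with a lower dispersion than the 0.126 fitted to these data. That run does not measure the power of the test here. Differences are of log2(RPKM + 1), which understates low genes. Counting intervals are exact 95% binomial (scipy 1.17.1), from counts and the library totals behind RPKM; they cover counting error only. Named genes are the 5 highest and 3 lowest members by mean RPKM, the 6 with the largest decrease and the 6 with the largest increase in the less changed siCDCA3 library, the 5 with the largest gap between siCDCA3 libraries, fixed members of known place, and the extremes of each list by mean difference; lists of 1.5-fold members and exceptions were named after their values were seen. The members and lists were chosen with earlier results of these data known. Sequences are from RefSeq GRCh38.p14; start codons and exon overlaps from GENCODE 29.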

Additional observations from a re-analysis of the deposited data

How the results depend on the processing

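No paired analysis was possible because siNC has 1 library, whose label carries no replicate number. No member passed under any tool, scaling, filter or transcript choice run. Over all genes edgeR called 0 higher and 3 lower, DESeq2 2 and 8, limma 0 lower, edgeR without a filter 4 and 18, and edgeR at a mean RPKM of at least 5 0 lower. The member medians stayed negative in siCDCA3-1 and positive in siCDCA3-2 under each pseudocount, scaling, filter and transcript choice. With TMM factors 25 members were higher in both siCDCA3 libraries, 28 lower in siCDCA3-1 and higher in siCDCA3-2 and 6 the reverse, and with median-of-ratios factors 25, 29 and 5, against 12, 48 and 2 as deposited. The large minus small subunit difference of medians, 0.039 in siCDCA3-1 and 0.072 in siCDCA3-2, was 0.116 and 0.004 at a mean RPKM of at least 5 and -0.028 and 0.003 with subunits by structure; the change comes from fewer or differently placed genes. Leaving out a siCDCA3 library left the mean-based difference between 0.039 and 0.072 (0.017 with both), and the member median between -0.194 and 0.176 (0.009 with both), values with no test. By the plain ratio of RPKM, chosen after seeing the data, 6 members in place of 3 were 1.5-fold lower in siCDCA3-1, 12 in place of 10 were 1.5-fold higher in siCDCA3-2 and 2 in place of 1 were past 2-fold. The rescaling of the lists and structural classes was also chosen after seeing the data. Depth limits the smaller differences: the counting interval of the ratio to siNC held 100% for 24 members in siCDCA3-1 and 18 in siCDCA3-2. Comparisons with siNC rest on 1 siNC library, and that between the siCDCA3 libraries has no replicate of either.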
